A study of Mus musculus with 11 samples.

Results

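The proteasome genes of mouse testis were compared between Ccer1-/- and Ccer1+/+ animals, with the core particle, its regulators and the 2 testis forms Psma8 and Psme4 described side by side. Members were all genes of the count tables whose Ensembl identifier carried a symbol from Psma to Psmg followed by a number, without Psmc3ip, which names another protein, and without pseudogenes. This rule found 47 of 22259 genes: 7 subunits of the core α ring and Psma8, 7 subunits of the core β ring, 3 further β subunits (Psmb8, Psmb10 and Psmb11), 6 ATPases and 11 non-ATPase subunits of the regulatory particle, 7 assembly chaperones, the activators Psme1, Psme2 and Psme3 with the inhibitor Psmf1, and Psme4. Testis RNA was sequenced in 3 untreated Ccer1-/- and 3 untreated Ccer1+/+ samples from adult mice. The mutant carries a CRISPR-Cas9 frameshift deletion in Ccer1, a gene of round to elongated spermatids, on a C57BL/6J background. Of the frameshift lines made, the study chose that with the longest deletion for its work on pathology, and the sources used here do not tie these libraries to a line. Sperm Hi-C samples of the series were not analysed here.

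The proteasome degrades proteins that carry ubiquitin. Its core particle is a barrel of outer α rings, which gate the entry, and inner β rings, which hold the catalytic sites. A regulatory particle with an ATPase ring and a non-ATPase lid binds the ends of the barrel, recognises ubiquitin and unfolds the substrate. Other activators bind the same ends without using ATP. In male germ cells the α subunit encoded by Psma7 is replaced in part by the product of Psma8, and proteasomes that hold it are called spermatoproteasomes. Psme4 encodes a large activator that is abundant in testis and is known for the degradation of acetylated core histones when histones are replaced in elongating spermatids.

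Library totals were 15970289 to 16552947 counts in Ccer1-/- and 16259579 to 19621550 counts in Ccer1+/+ testes, and the members took 0.584, 0.598 and 0.607% of all counts in the Ccer1-/- libraries and 0.584, 0.584 and 0.587% in the Ccer1+/+ libraries. The targeted gene Ccer1 had 82.1, 93.0 and 88.3 CPM (counts scaled to library size by TMM factors) in Ccer1-/- testes, against 439, 610 and 529 CPM in Ccer1+/+ testes, and was the only gene of 15139 tested with an adjusted p under 0.05 (log2 fold change -2.58, SE 0.15, adjusted p = 7.35e-04, edgeR). Ccer1+/+ replicate 1 stood apart from its group: its mean correlation was 0.988 with the Ccer1-/- libraries and 0.968 with the other Ccer1+/+ libraries, and the first principal component, with 44.7% of the variance, set Ccer1+/+ replicates 2 and 3 against the other 4 libraries. The second component, with 32.1%, set replicate 3 of each genotype (-37.2 in Ccer1-/-, -29.3 in Ccer1+/+) against the rest. Where leaving out Ccer1+/+ replicate 1 changed the call of a proteasome gene, the value of the gene without that library is also given. A whole testis mixes germ and somatic cells, so fewer cells of a type and less RNA per cell cannot be told apart. Nothing in the labels states whether the samples came from separate litters or days, and the p-values measure the spread between these libraries.

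Because the transcription factor encoded by Nfe2l1 is known to raise mammalian proteasome genes through antioxidant response elements, the letters TGACNNNGC were searched on both strands from 250 bases before to 50 bases after each start site in RefSeq promoters (GRCm38.p6). Promoters were found for 39 of the 47 members, in 42 windows. The letters occurred in 6 of these 39 genes (15.4%), against 14.0% of all 27025 genes with a promoter of the same length, so the share among the members was close to that of all genes. The sites of the testis form Psme4, of the catalytic β subunit gene Psmb6 and of the ATPase gene Psmc6 are shown because these genes recur below. Each is written 5′ to 3′ along the strand that reads TGACNNNGC, with those letters in capitals and 10 flanking bases on each side.
Psme4: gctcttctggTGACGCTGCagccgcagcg
Psmb6: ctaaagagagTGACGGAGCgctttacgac
Psmc6: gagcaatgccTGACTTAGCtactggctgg
The Psme4 stretch lies at chr11:30771758-30771786 on the minus strand, opposite to the gene, and its motif spans the start site, with its first base at -7 in the direction of the gene. The Psmb6 stretch lies at chr11:70525338-70525366 on the plus strand, with the motif starting at -9 from an annotated start. The Psmc6 stretch lies at chr14:45329587-45329615 on the minus strand, opposite to the gene, at -227. The other 3 genes with these letters were Psmb5, Psmd9 and Psmd12. Such a match describes letters only and is not a test of binding.

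No proteasome gene passed the test between genotypes over all 6 libraries. Of the 47 members, 46 had enough counts to be tested, and 0 had an adjusted p under 0.05 in either direction by edgeR's quasi-likelihood test (adjusted p from 0.786 to 0.997), against 0% of all genes called higher and 0.00661% called lower in Ccer1-/- testes. An unadjusted p under 0.05 was also reached by 0 members, by edgeR and by DESeq2 alike, where 1.62% of all genes were higher and 1.27% lower at that level by edgeR. The log2 fold changes of the members ran from -0.52 for Psmg4 to 0.40 for Psme3, with a median of 0.038 beside 0.039 over all genes tested. A positive log2 fold change was found for 27 members (58.7%, all genes 55.4%) and a negative value for 19 (41.3%, all genes 44.6%). The median SE of a member was 0.15 on the log2 scale, beside 0.22 over all genes, which sets the size of difference that these libraries could show. Psmb11, which encodes a β subunit of the thymus, was the member not tested, with 0, 0 and 1 raw counts in Ccer1-/- testes and 3, 2 and 0 in Ccer1+/+ testes.

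**Figure D1:**
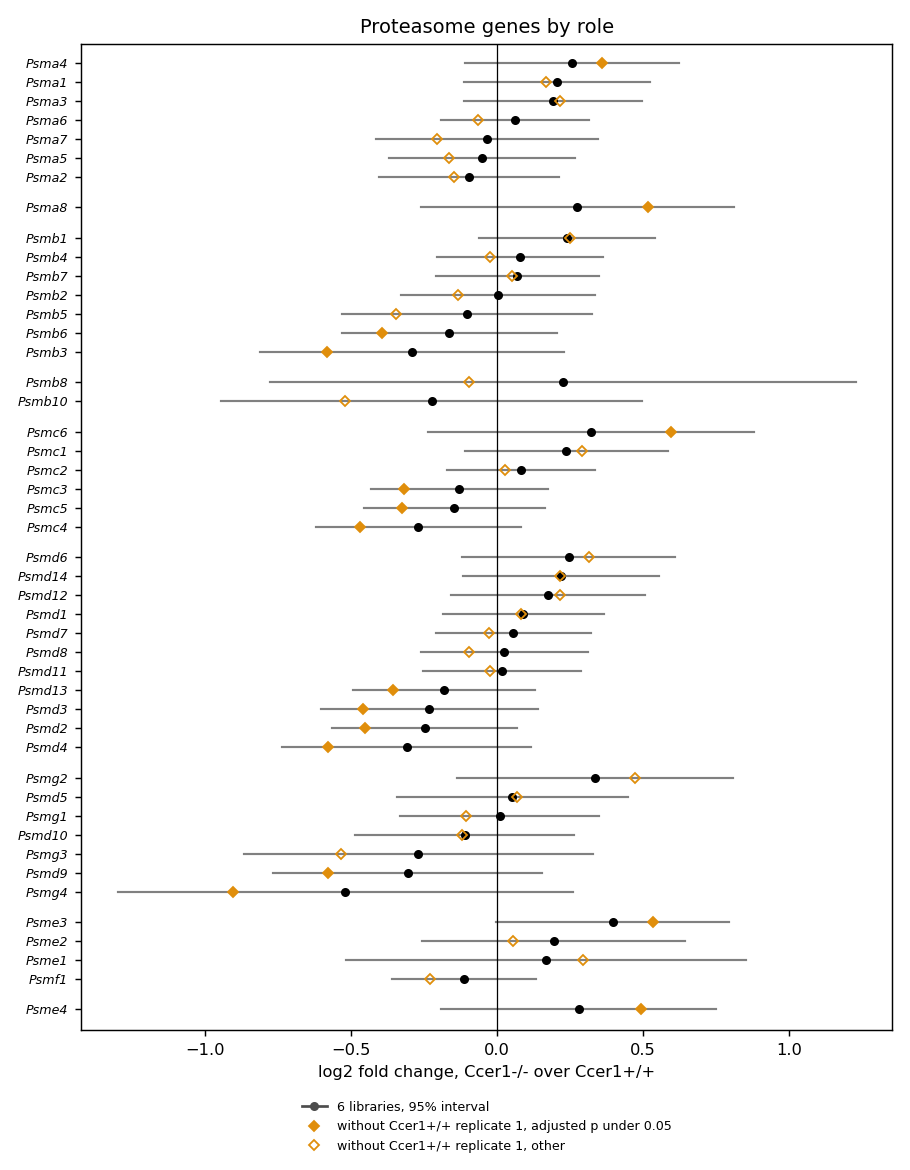
Log2 fold change of Ccer1-/- over Ccer1+/+ testis for the 46 tested proteasome genes, in blocks from top to bottom of α ring, Psma8, β ring, inducible β subunits, ATPases, non-ATPase subunits, assembly chaperones, other activators with the inhibitor, and Psme4. Black points and bars are the estimate and its 95% interval from 6 libraries, diamonds the estimate without Ccer1+/+ replicate 1, filled where the adjusted p was under 0.05. Every bar crosses 0, and the 16 filled diamonds lie farther from 0 than their black points, which calling them without that library largely sets.

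Psma8, the germ cell relative of Psma7, did not pass the test between genotypes, and its libraries overlapped. It had 93.6, 88.0 and 118 CPM in Ccer1-/- testes, against 115, 60.2 and 72.4 CPM in Ccer1+/+ testes. Ccer1+/+ replicate 1 lay among the Ccer1-/- libraries, and Ccer1+/+ replicates 2 and 3 were below all of them. The log2 fold change was 0.28 (SE 0.24, 95% interval -0.26 to 0.81, adjusted p = 0.786, edgeR). Without Ccer1+/+ replicate 1 it was 0.52 (SE 0.15, adjusted p = 0.0436, edgeR). When each library was corrected by a smooth curve fitted to the length and GC content of the transcripts, it was 0.0031 (SE 0.14).

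Psma7, whose product takes the same position in the α ring, had 25.5, 22.2 and 20.8 CPM in Ccer1-/- testes and 20.0, 25.8 and 24.4 CPM in Ccer1+/+ testes, with a log2 fold change of -0.03 (SE 0.17, 95% interval -0.41 to 0.35, adjusted p = 0.959, edgeR). Psma7 was lowest in Ccer1+/+ replicate 1, the Ccer1+/+ library in which Psma8 was highest. The log2 ratio of Psma8 to Psma7 within a library, which does not depend on scaling, was 1.88, 1.99 and 2.50 in Ccer1-/- testes and 2.52, 1.22 and 1.57 in Ccer1+/+ testes. The genotypes overlapped, with Ccer1+/+ replicate 1 above every Ccer1-/- library. Per kilobase of the longest coding transcript, Psma8 RNA was on average 2.35-fold Psma7 RNA in Ccer1-/- and 1.84-fold in Ccer1+/+ testes. The size of this excess depends on the length used for Psma7: with the merged exon length of each gene it was 7.81-fold in Ccer1-/- and 6.13-fold in Ccer1+/+ testes.

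Psme4 showed nearly the same order of libraries as Psma8. It had 740, 733 and 822 CPM in Ccer1-/- testes, against 856, 463 and 571 CPM in Ccer1+/+ testes. Ccer1+/+ replicate 1 had the highest value of all 6 libraries, and the other Ccer1+/+ libraries had the lowest values. The log2 fold change was 0.28 (SE 0.21, 95% interval -0.19 to 0.75, adjusted p = 0.786, edgeR), and without Ccer1+/+ replicate 1 it was 0.49 (SE 0.11, adjusted p = 0.0169, edgeR). With the curve on length and GC content removed it was 0.10 (SE 0.14).

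Psme3, which encodes a nuclear activator that forms rings of a single kind of subunit, came closest to the threshold of all members. It had 110, 104 and 119 CPM in Ccer1-/- testes and 107, 68.9 and 76.8 CPM in Ccer1+/+ testes, so that Ccer1+/+ replicate 1 again lay within the Ccer1-/- range. The log2 fold change was 0.40 (SE 0.18, 95% interval -0.0032 to 0.79, unadjusted p = 0.0515 and adjusted p = 0.786, edgeR), and it was 0.54 without Ccer1+/+ replicate 1 (adjusted p = 0.0106, edgeR). The log2 ratio of Psme4 to Psme3 was 2.75, 2.82 and 2.79 in Ccer1-/- testes and 2.999, 2.75 and 2.89 in Ccer1+/+ testes, the least spread of the 4 ratios computed here in both genotypes. Per kilobase, Psme4 RNA was 2.83-fold Psme3 RNA in Ccer1-/- and 3.02-fold in Ccer1+/+ testes.

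Psme1 and Psme2, which encode the subunits of an interferon-inducible activator ring, were lower per kilobase than Psme3 and Psme4 (8.35 and 7.88 CPM per kilobase in Ccer1-/- testes, 7.42 and 6.89 in Ccer1+/+ testes). Psme1 had 7.50, 11.4 and 8.92 CPM in Ccer1-/- testes and 10.3, 9.58 and 4.84 CPM in Ccer1+/+ testes (log2 fold change 0.17, SE 0.30), a value that changed sign when Ccer1-/- replicate 2 was left out (-0.06) or Ccer1+/+ replicate 3 was left out (-0.15). Psme2 had 7.01, 7.65 and 8.07 CPM in Ccer1-/- testes and 5.99, 7.73 and 6.18 CPM in Ccer1+/+ testes (log2 fold change 0.19, SE 0.20). Psmf1, which encodes an inhibitor of the core particle, had 314, 320 and 306 CPM in Ccer1-/- testes and 318, 336 and 364 CPM in Ccer1+/+ testes. Its log2 fold change was -0.11 (SE 0.11, 95% interval -0.36 to 0.13). The genotypes overlapped for all 3 genes.

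**Figure D2:**
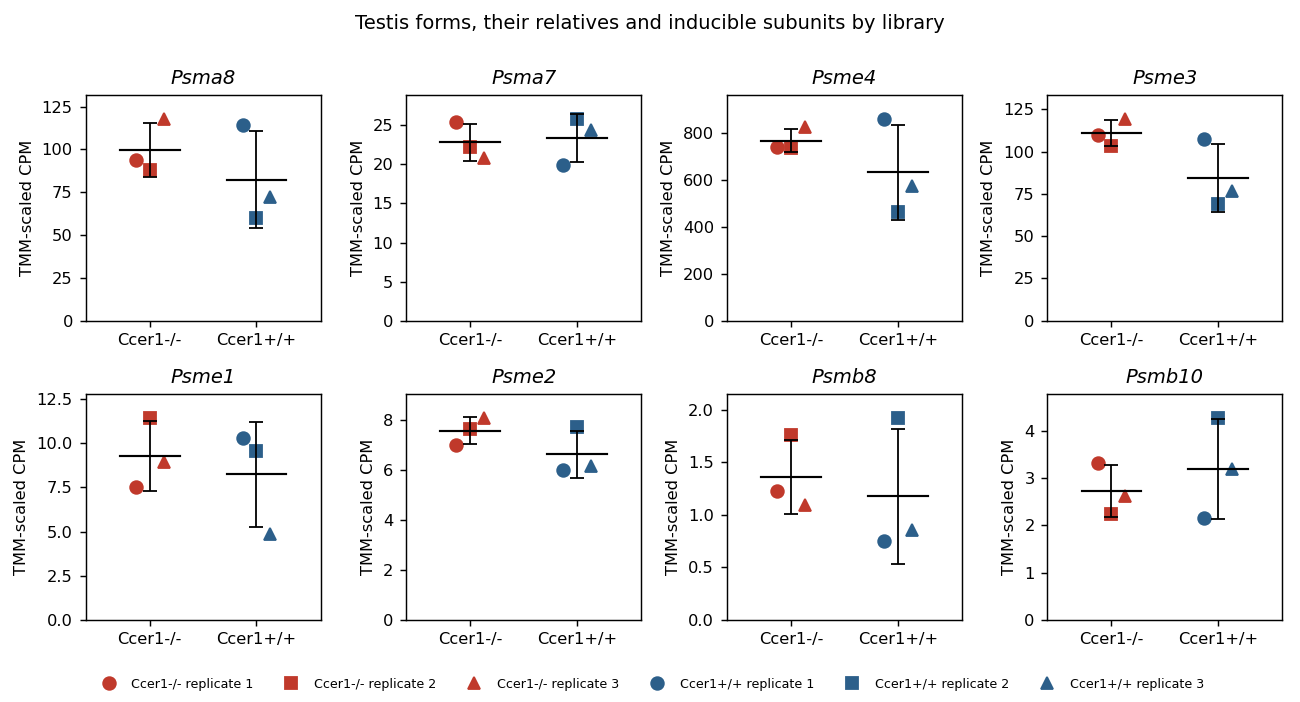
CPM (TMM-scaled) of Psma8, Psma7, Psme4, Psme3, Psme1, Psme2, Psmb8 and Psmb10 in each testis library, Ccer1-/- left and Ccer1+/+ right, with symbols for the replicate, a line at the mean and bars of 1 SD over 3 libraries. The blue circle of Ccer1+/+ replicate 1 sits among the Ccer1-/- points for Psma8 (115 CPM) and Psme3 (107 CPM) and above all of them for Psme4 (856 CPM).

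In the α ring, which gates the core particle, 4 of 7 genes had a log2 fold change above 0 and 3 below it, within -0.10 to 0.26 and with 0 past an unadjusted p of 0.05. Psma4 had 59.1, 59.4 and 65.4 CPM in Ccer1-/- testes and 62.9, 44.6 and 46.5 CPM in Ccer1+/+ testes, the largest positive value of the ring (0.26, SE 0.16, and 0.36 without Ccer1+/+ replicate 1, adjusted p = 0.0338, edgeR). Psma2 had 35.0, 32.0 and 35.5 CPM in Ccer1-/- testes and 37.5, 38.2 and 33.9 CPM in Ccer1+/+ testes (-0.10, SE 0.14). Psma1 and the lid gene Psmd14, named here after their values were seen, were the 2 members whose genotypes did not overlap, both higher in Ccer1-/- testes (4.35% of the members, all genes 5.2%), and 0 members were lower without overlap (all genes 3.14%). Psma1 had 32.4, 34.6 and 29.9 CPM in Ccer1-/- testes against 29.2, 26.4 and 28.4 CPM in Ccer1+/+ testes (0.20, SE 0.14). Psmd14, which encodes the deubiquitinase of the lid, had 32.0, 32.2 and 33.3 CPM in Ccer1-/- testes against 30.5, 24.2 and 29.1 CPM in Ccer1+/+ testes (0.22, SE 0.15). A share of non-overlapping genes this near to that of all genes says nothing particular about the proteasome.

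In the β ring, the log2 fold changes ran from -0.29 for Psmb3 to 0.24 for Psmb1, 4 positive and 3 negative, with 0 past an unadjusted p of 0.05. Psmb6, which encodes the caspase-like subunit, had 141, 150 and 158 CPM in Ccer1-/- testes and 128, 189 and 185 CPM in Ccer1+/+ testes. Here Ccer1+/+ replicate 1 was the lowest library and the other Ccer1+/+ libraries the highest, the reverse of the order seen for Psme4. The log2 fold change of Psmb6 was -0.16 (SE 0.16), and -0.39 without Ccer1+/+ replicate 1 (SE 0.082, adjusted p = 0.0146, edgeR). Psmb3, a structural subunit, followed the same order with 38.9, 39.2 and 39.5 CPM in Ccer1-/- testes and 32.2, 64.2 and 47.6 CPM in Ccer1+/+ testes. Its log2 fold change was -0.29 (SE 0.23), and -0.58 without Ccer1+/+ replicate 1 (adjusted p = 0.0180, edgeR). Psmb1, another subunit without a catalytic site, had 54.7, 59.5 and 61.3 CPM in Ccer1-/- testes and 54.9, 46.6 and 47.1 CPM in Ccer1+/+ testes. Psmb5 encodes the chymotrypsin-like and Psmb7 the trypsin-like subunit. Psmb5 had 40.2, 45.4 and 48.6 CPM in Ccer1-/- testes and 36.0, 57.7 and 50.6 CPM in Ccer1+/+ testes (-0.10, SE 0.19), and Psmb7 had 102, 109 and 121 CPM in Ccer1-/- testes and 113, 104 and 100 CPM in Ccer1+/+ testes (0.07, SE 0.12). The sign of both turned when the curve on length and GC content was removed, with 0.05 for Psmb5 and -0.05 for Psmb7.

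The inducible β subunits, which replace constitutive ones in the immunoproteasome of immune cells, were near the bottom of the range. Psmb8, the inducible counterpart of Psmb5, had 20, 29 and 18 raw counts in Ccer1-/- testes and 15, 31 and 14 in Ccer1+/+ testes, or 1.23, 1.76 and 1.09 CPM in Ccer1-/- and 0.748, 1.92 and 0.857 CPM in Ccer1+/+ testes. Psmb10, the counterpart of Psmb7, had 3.32, 2.25 and 2.61 CPM in Ccer1-/- testes and 2.15, 4.26 and 3.18 CPM in Ccer1+/+ testes. The log2 fold changes were 0.22 for Psmb8 (SE 0.44, 95% interval -0.78 to 1.23) and -0.22 for Psmb10 (SE 0.32, 95% interval -0.95 to 0.50), and at these counts a difference within either interval was not detectable. The log2 ratio of Psmb8 to Psmb5 was -5.03, -4.69 and -5.48 in Ccer1-/- testes and -5.59, -4.91 and -5.88 in Ccer1+/+ testes, so the inducible RNA was a small fraction of the constitutive RNA in every library. The ratio of Psmb10 to Psmb7 was -4.95, -5.61 and -5.53 in Ccer1-/- testes and -5.72, -4.60 and -4.98 in Ccer1+/+ testes. The genotypes overlapped in both ratios. The 10 markers of macrophages and antigen-presenting cells, the cells in which these subunits are usual, summed to 84.7, 96.2 and 31.8 CPM in Ccer1-/- testes and 80.1, 106 and 29.0 CPM in Ccer1+/+ testes, and 0 of the 10 were at 0 in every library. Psmb8 and that sum were both highest in replicate 2 of each genotype, as was the sum of the 7 Leydig cell markers. In Ccer1-/- testes Psmb8 and the macrophage sum ranked the replicates alike. In Ccer1+/+ testes Psmb8 had 0.748 CPM in replicate 1 and 0.857 in replicate 3, where the sums were 80.1 and 29.0. These 2 Psmb8 values rest on 15 and 14 raw counts and are hardly different. Psmb10 was highest in replicate 2 among the Ccer1+/+ libraries but lowest in replicate 2 among the Ccer1-/- libraries. The part of these cells in the Psmb8 and Psmb10 levels was not tested.

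Among the regulatory ATPases, which unfold the substrate, 3 log2 fold changes were positive and 3 negative, from -0.27 to 0.32, with 0 past an unadjusted p of 0.05. Psmc4 had 36.6, 38.1 and 38.1 CPM in Ccer1-/- testes and 37.1, 49.3 and 49.7 CPM in Ccer1+/+ testes, with Ccer1+/+ replicate 1 inside the Ccer1-/- range (-0.27, SE 0.15, and -0.47 without that library, adjusted p = 0.0115, edgeR). Psmc6 ran the other way, with 31.5, 30.8 and 35.9 CPM in Ccer1-/- testes and 37.2, 19.0 and 22.2 CPM in Ccer1+/+ testes (0.32, SE 0.25). Psmc1 had 74.6, 72.1 and 87.9 CPM in Ccer1-/- testes and 77.4, 57.8 and 63.9 CPM in Ccer1+/+ testes (0.24, SE 0.15). Members of this single ring thus lay on opposite sides of the Ccer1-/- libraries in Ccer1+/+ replicates 2 and 3.

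The 11 non-ATPase subunits gave 7 positive and 4 negative values, from -0.31 to 0.24, again with 0 past an unadjusted p of 0.05. Psmd2, which encodes a scaffold at the base that docks ubiquitin receptors and Usp14, had 619, 660 and 641 CPM in Ccer1-/- testes and 614, 842 and 824 CPM in Ccer1+/+ testes (-0.25, SE 0.14, 95% interval -0.57 to 0.07). Without Ccer1+/+ replicate 1 it was -0.45 (adjusted p = 0.00574, edgeR). Psmd4, which encodes a ubiquitin receptor, had 171, 182 and 190 CPM in Ccer1-/- testes and 159, 262 and 253 CPM in Ccer1+/+ testes (-0.31, SE 0.19). Psmd6, a lid subunit gene, had 74.7, 78.9 and 85.0 CPM in Ccer1-/- testes and 79.7, 54.0 and 67.6 CPM in Ccer1+/+ testes (0.24, SE 0.16). In the first 2 of these genes the Ccer1-/- libraries sat with Ccer1+/+ replicate 1 near the low end, and for Psmd6 near the high end.

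The assembly chaperones, which help to build the core and the base and leave the finished particle, had the widest range, with 3 positive and 4 negative values and 0 past an unadjusted p of 0.05. Psmg2, which acts with Psmg1 on the α ring, had 22.7, 23.3 and 24.2 CPM in Ccer1-/- testes and 23.4, 13.5 and 18.6 CPM in Ccer1+/+ testes (0.34, SE 0.21). Psmg4, which acts with Psmg3, had 3.63, 3.46 and 3.58 CPM in Ccer1-/- testes and 2.69, 7.11 and 5.57 CPM in Ccer1+/+ testes (-0.52, SE 0.34, 95% interval -1.30 to 0.26). Its Ccer1-/- libraries lay close together, while its Ccer1+/+ libraries lay on both sides of them.

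RNA levels of subunits that share a ring were far from equal. Per kilobase of the longest coding transcript, the α ring spanned 32.4-fold in Ccer1-/- and 29.1-fold in Ccer1+/+ testes, with Psma6 highest (416 ± 22.7 CPM per kilobase in Ccer1-/-, 399 ± 26.5 in Ccer1+/+; SD, n = 3 each) and Psma2 lowest (12.8 ± 0.716 in Ccer1-/-, 13.7 ± 0.875 in Ccer1+/+). The ATPase ring spanned 29.3-fold in Ccer1-/- and 40.0-fold in Ccer1+/+ testes, from Psmc3 (439 ± 15.1 in Ccer1-/-, 480 ± 72.3 in Ccer1+/+) down to Psmc6 (15.0 ± 1.27 in Ccer1-/-, 12.0 ± 4.46 in Ccer1+/+). The β ring was more even, with 4.86-fold in Ccer1-/- and 5.45-fold in Ccer1+/+ testes. The non-ATPase subunits spanned 11.1-fold in Ccer1-/- and 14.0-fold in Ccer1+/+ testes. Psme4 ranked 7th of 47 in Ccer1-/- and 9th in Ccer1+/+ testes, with 118 ± 7.65 CPM per kilobase in Ccer1-/- and 97.1 ± 31.3 in Ccer1+/+. Psma8 ranked 13th in Ccer1-/- and 17th in Ccer1+/+ testes, with 58.9 ± 9.32 CPM per kilobase in Ccer1-/- and 48.7 ± 16.8 in Ccer1+/+, above every α gene except Psma6, with Psma4 next (52.6 ± 3.07 in Ccer1-/-, 44.0 ± 8.63 in Ccer1+/+), a gap smaller than the SD of Psma8 in both genotypes. The α ring without Psma8 had a median of 26.9 CPM per kilobase in Ccer1-/- and 25.6 in Ccer1+/+ testes, the β ring 56.5 in Ccer1-/- and 62.7 in Ccer1+/+, and the assembly chaperones 8.00 in Ccer1-/- and 9.25 in Ccer1+/+. These levels assume that the longest annotated transcript is the one present in testis.

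**Figure D3:**
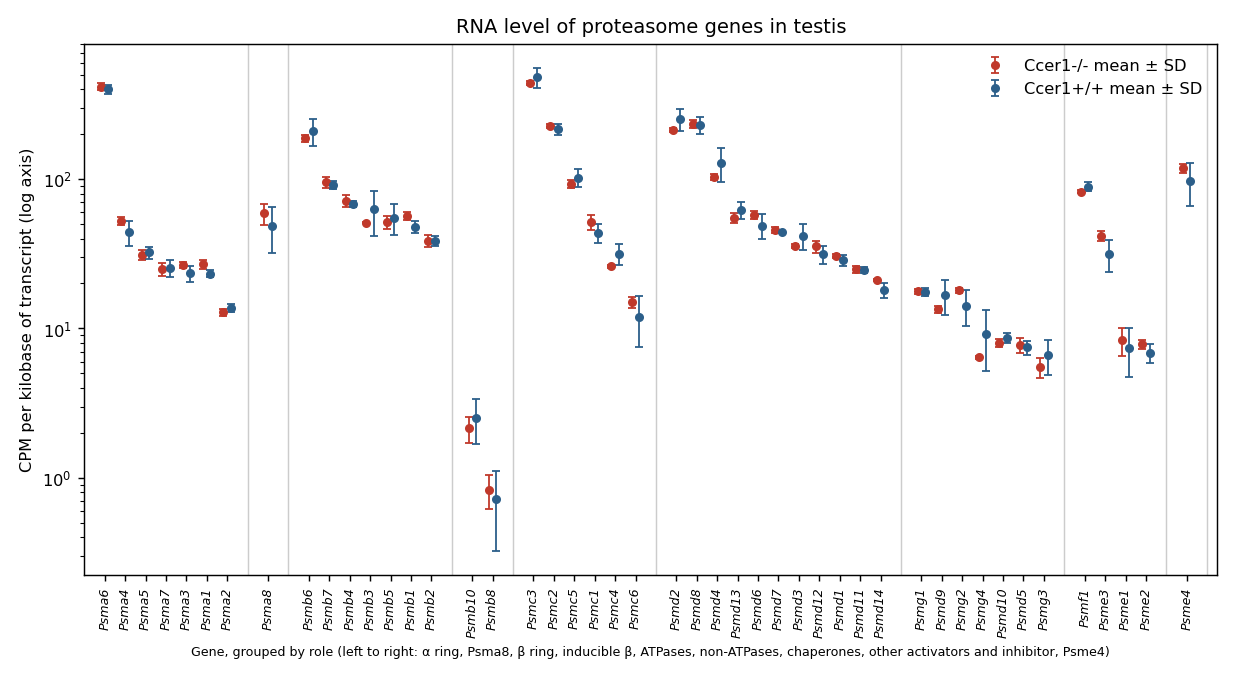
Level of each of the 46 tested proteasome genes in CPM per kilobase of the longest coding transcript (log axis), grouped by role, Ccer1-/- left of Ccer1+/+ within each pair, as mean ± SD of 3 libraries. Psma6, at 416 in Ccer1-/- and 399 in Ccer1+/+ testes, stands far above the other α genes, Psma8 and Psme4 lie in the upper part of the range, and Psmb8 and Psmb10 lie at the bottom.

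The spread between libraries was itself unequal between genotypes. The SD of log2 CPM was larger in Ccer1+/+ than in Ccer1-/- testes for 39 of 46 members (84.8%), beside 76.0% of all genes tested. The median SD of a member was 0.085 in Ccer1-/- and 0.20 in Ccer1+/+ testes, beside 0.15 in Ccer1-/- and 0.30 in Ccer1+/+ testes over all genes. Ccer1+/+ replicate 1 was above both other Ccer1+/+ libraries for 19 members (41.3%, all genes 43.3%) and below both for 24 (52.2%, all genes 36.1%). Its value fell between the lowest and highest Ccer1-/- libraries for 19 members (41.3%, all genes 49.4%).

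Without Ccer1+/+ replicate 1, members separated in both directions. Psma4, Psma8, Psmc6, Psme3 and Psme4 were higher in Ccer1-/- testes at an adjusted p under 0.05 by edgeR, 5 of 46 members (10.9%, where 9.21% of 15345 genes tested were called higher). Psmb3, Psmb6, Psmc3, Psmc4, Psmc5, Psmd2, Psmd3, Psmd4, Psmd9, Psmd13 and Psmg4 were lower, 11 of 46 members (23.9%, where 12.5% of all genes were called lower). The largest of these log2 fold changes were -0.90 for Psmg4 (SE 0.21, adjusted p = 0.0219, edgeR) and 0.60 for Psmc6 (SE 0.13, adjusted p = 0.0179, edgeR), and the smallest adjusted p was that of Psmd4 (-0.58, SE 0.079, adjusted p = 0.00453, edgeR). The lower genes not described above were the ATPase genes Psmc3 (-0.32) and Psmc5 (-0.33), the lid genes Psmd3 (-0.46) and Psmd13 (-0.36), and the chaperone gene Psmd9 (-0.58). The left-out library did not take a middle place. For the 5 higher genes it lay within the Ccer1-/- range for 3 and beyond the Ccer1-/- libraries on the far side for 2, and for the 11 lower genes it lay within for 2 and beyond for 9. These calls therefore rest on leaving out a Ccer1+/+ library that looked like, or went past, the Ccer1-/- libraries. Since the genes passed only without that library, its place toward or past the Ccer1-/- libraries is largely given by their choice and is no separate result. Of the 6 genes with TGACNNNGC in the promoter, Psme4 and Psmc6 were among the higher, Psmb6 and Psmd9 among the lower, and Psmb5 and Psmd12 in neither set.

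**Figure D4:**
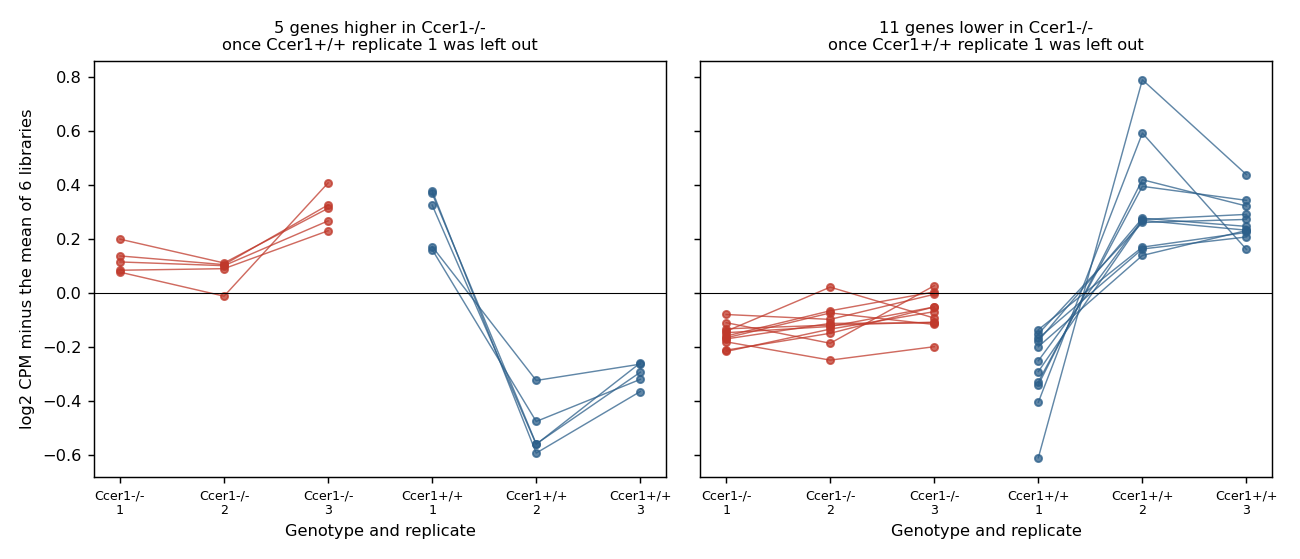
Log2 CPM of each gene minus its mean over 6 libraries, for the 5 genes higher (left panel) and the 11 genes lower (right panel) in Ccer1-/- testes once Ccer1+/+ replicate 1 was left out. Each line joins the values of a gene within a genotype to aid the eye and implies no order of replicates. Ccer1+/+ replicate 1 lies on the side of the Ccer1-/- libraries in both panels, as the choice of these genes largely sets.

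The direction in which Ccer1+/+ replicate 1 departed followed the base composition of the transcripts. Across the 46 tested members, the log2 ratio of Ccer1+/+ replicate 1 to the mean of the other Ccer1+/+ libraries had a Spearman correlation of -0.78 with the GC content of the longest coding transcript, and of -0.70 across 14459 tested genes with a transcript sequence. The correlation with transcript length was 0.32 for the members and 0.22 for all genes. The points share the same 3 libraries, so these values are a description. The 5 genes higher in Ccer1-/- testes without that library had a GC content of 36.2 to 49.8% (median 43.9%), with Psmc6 at 36.2%, Psma8 at 42.7% and Psme4 at 43.9%. The 11 lower genes had 50.9 to 58.3% (median 53.8%), so the GC contents of both sets did not overlap. The log2 fold change over all 6 libraries was also correlated with GC content, with -0.61 for the members and -0.60 for all genes. Without Ccer1+/+ replicate 1 this correlation was -0.69 for the members and -0.69 for all genes. The trend with GC content thus also set Ccer1+/+ replicates 2 and 3 against the Ccer1-/- libraries and was not confined to replicate 1. After the correction of each library for length and GC content, 0 members had an adjusted p under 0.05, and 2 of low GC content, Psma2 and Psmd10, were lower at an unadjusted p under 0.05. The share of all genes at that level with the curve removed is not given here, so these 2 are not read as a result about the proteasome. The part of base composition in the differences between libraries was not tested beyond this curve.

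**Figure D5:**
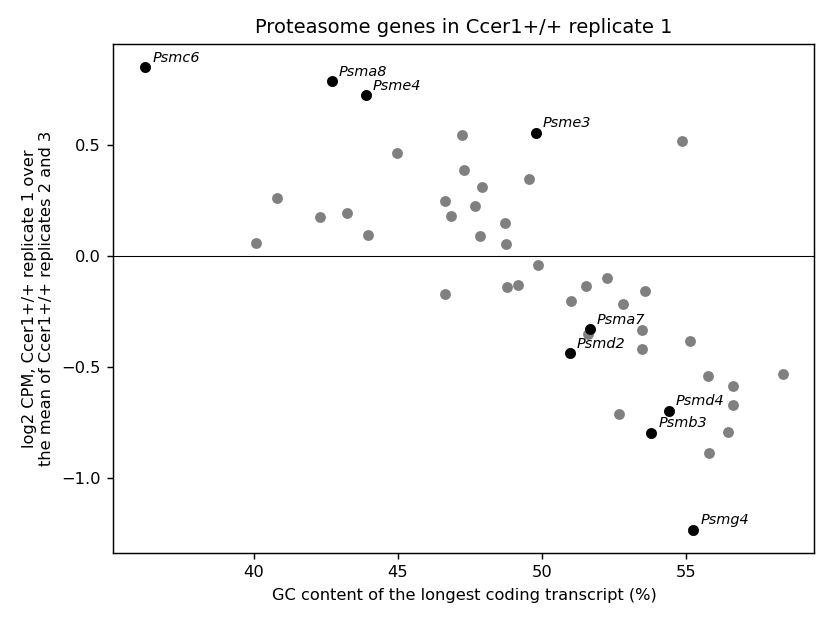
Log2 ratio of Ccer1+/+ replicate 1 to the mean of Ccer1+/+ replicates 2 and 3 against the GC content of the longest coding transcript, each point a tested proteasome gene (n = 46, labelled and black where discussed). Values fall with GC content (Spearman correlation -0.78), with Psmc6, Psma8 and Psme4 at the top left and Psmg4 at the bottom right.

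Among genes that work with the proteasome, Usp14 and Akirin2 had the smallest p. Of 20 partners, 19 were found and tested, 13 above and 6 below 0 in log2 fold change (median 0.22, all genes 0.039), 0 past an adjusted p of 0.05 and 2 higher at an unadjusted p under 0.05 by edgeR (10.5%, all genes 1.62%). With the correction for length and GC content their median was 0.08, and Usp14 had 0.31. Usp14, a deubiquitinase that trims ubiquitin at the proteasome, had 29.8, 32.5 and 33.3 CPM in Ccer1-/- testes and 28.4, 16.6 and 17.8 CPM in Ccer1+/+ testes (0.61, SE 0.22, adjusted p = 0.786, edgeR, and 0.82 without Ccer1+/+ replicate 1, adjusted p = 0.00515, edgeR). Akirin2, which mediates nuclear import of proteasomes, had 80.9, 81.9 and 102 CPM in Ccer1-/- testes and 74.5, 54.3 and 71.8 CPM in Ccer1+/+ testes (0.40, SE 0.17, adjusted p = 0.786, edgeR). In both genes every Ccer1-/- library was above every Ccer1+/+ library, as in 5.2% of all genes tested. Both were named for the smallest p of the list, so this separation is close to given by that choice. Of 6 genes for ubiquitin and its activation, 2 were positive and 4 negative (median -0.17), with 0 past an unadjusted p of 0.05. Ubb, a polyubiquitin gene, had 4729, 4656 and 4627 CPM in Ccer1-/- testes and 4235, 6575 and 6371 CPM in Ccer1+/+ testes (-0.29, SE 0.17, and -0.54 without Ccer1+/+ replicate 1, adjusted p = 0.00319, edgeR). Without Ccer1+/+ replicate 1, 5 of the 19 partners were higher and 2 lower in Ccer1-/- testes at an adjusted p under 0.05 by edgeR, and of the 6 ubiquitin genes 1 was higher and 3 were lower, where 9.21% of all genes were called higher and 12.5% lower. Of 9 genes for antigen presentation and interferon response, 2 were positive and 7 negative (median -0.11), 0 past an unadjusted p of 0.05 in all 6 libraries and 0 past the adjusted threshold without Ccer1+/+ replicate 1. In this list Irf1, an interferon-induced transcription factor gene, had a log2 fold change of -0.51 (SE 0.33), and B2m, which encodes the light chain of class I molecules, 0.50 (SE 0.36).

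Germ cell markers moved between the same libraries. The 9 markers of elongating spermatids, the cells in which Psme4 is known to act, summed to 17206, 16936 and 15890 CPM in Ccer1-/- testes and 18815, 25411 and 25269 CPM in Ccer1+/+ testes, with a median log2 fold change of -0.20, 4 lower and 1 higher at an unadjusted p under 0.05 (all genes 1.27% lower and 1.62% higher) and 0 past the adjusted threshold. The 4 lower genes were Tnp1, Tnp2, Prm1 and Prm2, which encode transition proteins and protamines. These 4 summed to 8079, 7918 and 7174 CPM in Ccer1-/- testes and 10678, 16302 and 16473 CPM in Ccer1+/+ testes, while the other 5 markers summed to 9126, 9018 and 8715 CPM in Ccer1-/- testes and 8137, 9108 and 8797 CPM in Ccer1+/+ testes, with overlap. Without Ccer1+/+ replicate 1 the median of the 9 was -0.43, with 6 lower and 1 higher at an adjusted p under 0.05 by edgeR (all genes 12.5% lower and 9.21% higher). The 11 spermatocyte markers are of the stage in which Psma8 is usually described. They summed to 976, 971 and 1099 CPM in Ccer1-/- testes and 1058, 1036 and 1116 CPM in Ccer1+/+ testes. Piwil1 made up much of these sums, with 484, 478 and 487 CPM in Ccer1-/- and 491, 657 and 659 CPM in Ccer1+/+ testes. The median log2 fold change was 0.33, 0.75 without Ccer1+/+ replicate 1 and 0.0023 with the correction for length and GC content. Over all 6 libraries 1 marker, Piwil1, was lower at an unadjusted p under 0.05. Leaving out Ccer1+/+ replicate 1 brought Hormad1, Meiob, Sycp1, Sycp2, Sycp3 and Tex12 past the adjusted threshold as higher, and Piwil1 as lower (edgeR). Among the Ccer1+/+ libraries these 6 were, like Psma8, highest in replicate 1, as their choice largely sets. With the correction 0 passed it. The 9 round spermatid markers summed to 2538, 2527 and 2506 CPM in Ccer1-/- testes and 2368, 2806 and 2805 CPM in Ccer1+/+ testes. Their median log2 fold change was -0.071, with 1 lower at an unadjusted p under 0.05. The sums of the 9 elongating spermatid markers and of the other 5 were both lowest among the Ccer1+/+ libraries in replicate 1, the Ccer1+/+ library in which Psma8 and Psme4 were highest. The other 5 were divided in this. Among the Ccer1+/+ libraries, Odf1 (1436, 2269 and 1934 CPM) and Gapdhs (1355, 2186 and 1938 CPM) were lowest in replicate 1. Akap4 (2524, 1982 and 2187 CPM) and Oaz3 (1051, 945 and 946 CPM) were highest there, and Smcp lay between. Defining markers of all these stages were detected, with 0 of them at 0 in every library. Sertoli and Leydig cell lists had median log2 fold changes of -0.0023 and 0.21, with 0 genes past an unadjusted p of 0.05. The part of cell composition in the proteasome values was not tested.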

How the data were processed

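Polyadenylated RNA was captured on oligo(dT) and reverse transcribed from random primers. The deposited files hold an estimated count per Ensembl gene, without scaling. According to the submitters' processing notes, the build was GRCm38 and the tools were StringTie 1.3.1, HISAT2, Bowtie2 2.2.8 and fastp 0.18.0. The program that counted reads is not stated in the sources used here. Counts of Psmb7, Psmd1, Psmd13 and Psme2 were not whole in every library, and how shared reads were divided is not stated, so these 4 are less certain. Psmb9 and Paaf1 were not matched and are not analysed here; Psme2b is listed as a pseudogene.

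Counts were rounded. In R 4.3.3, edgeR 4.0.16 (filterByExpr with minimum count 10 and minimum total 15, TMM, robust quasi-likelihood F test, two-sided, no covariate) was fitted to all genes, keeping 15139 and leaving out 7120, with Benjamini-Hochberg adjustment over all of them. SEs were obtained by dividing the size of each log2 fold change by the root of its F statistic, and the 95% intervals use the t distribution. DESeq2 1.42.0 was an alternative. SDs of log2 CPM used a pseudocount of 0.1. The procedure was tested on simulated counts. These had no deviating library, no trend with GC content and equal spread in both genotypes, so that test does not bear on these features of the real libraries. Transcript length and GC content came from GENCODE M1 (NCBIM37), promoters from RefSeq (GRCm38.p6). Symbols were found for 20314 identifiers and not for 1945.

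Members, lists and tests were chosen with earlier results of these data known. Named were Psma8, Psme4, their relatives, the inducible and constitutive catalytic subunits, the member of each role with the smallest p in each direction, members not tested, and 2 genes per further list, of which 1 is not reported here; genes called without Ccer1+/+ replicate 1 were added after their values were seen. Alternatives were other scalings, filters, DESeq2, a replicate block, other thresholds, leaving out each library and, chosen after seeing the data, a correction of each library for transcript length and GC content by natural splines (5 degrees of freedom each) and merged exon length.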

Additional observations from a re-analysis of the deposited data

How the results depend on the processing

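Leaving out each library in turn moved the most results. Members higher at an adjusted p under 0.05 numbered 0 to 5 and lower 0 to 11, and at an unadjusted p 0 to 9 higher and 0 to 14 lower, the highest counts without Ccer1+/+ replicate 1. In that fit 9.21% of all genes were called higher and 12.5% lower at the adjusted threshold. The shares of all genes at an unadjusted p under 0.05 in the alternative fits are not given here. Counts of members at that level, here and below, are therefore not read as a result about the proteasome. The log2 fold change ranged from 0.051 to 0.52 for Psma8, from 0.057 to 0.49 for Psme4, from -0.056 to 0.071 for Psmb7, from -0.095 to 0.71 for Psmb8 and from -0.15 to 0.30 for Psme1. The median of the members ranged from -0.079 to -0.0070, and that of the partners from 0.051 to 0.26. The median of the members was also -0.012 when every library had to reach 10 counts and -0.053 with the length and GC curve removed. Values near 0 that changed sign were Psma7 with library totals (0.0040), and Psmb5 (0.049) and Psmb7 (-0.049) with that curve; the curve gave 2 members lower at an unadjusted p under 0.05. Without a filter 1 member, Psme3, was higher at an unadjusted p under 0.05. With a replicate block 1 member, again Psme3, was higher at that level (log2 fold change 0.42, SE 0.16, adjusted p = 0.589, edgeR), and the block moved no member past the adjusted threshold. It also brought B2m (0.53, SE 0.16), Uba6 (0.57, SE 0.23) and Sem1 (-0.39, SE 0.16) past an unadjusted p of 0.05, each with an adjusted p of 0.589 by edgeR, beside Usp14 and Akirin2. The labels do not state that equal numbers are pairs, so the main fit did not take them as pairs. Deviations of same-numbered libraries correlated at 0.065, 0.35 and 0.47, and those of differently numbered libraries at -0.45 to 0.27. The 2 highest values were thus of same-numbered libraries, and whether the numbers mark a shared source was not tested. The causes of these changes were not tested. Besides these, 10 single genes passed the adjusted threshold only without Ccer1+/+ replicate 1, while 160 values of main results and 344 of single genes or ratios under an alternative kept their direction and side of the threshold, and 5 medians near 0 changed sign by less than the spread, those of the members with DESeq2 size factors (-0.0021), the DESeq2 test (-0.0024) and without Ccer1-/- replicate 1 (-0.0070), and that of the antigen presentation genes without Ccer1-/- replicate 3 (0.06) or Ccer1+/+ replicate 2 (0.05). With 3 libraries a genotype and a median SE of 0.15, small changes of single subunits were not detectable, and Psmb8 and Psmb10 rested on few counts.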
